A study of Mus musculus with 12 samples.

Results

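The mammalian circadian clock genes were followed in explants of mouse lung metastases: 10 clock and clock output genes out of 19505 genes measured on expression arrays. The 10 were Arntl, Clock, Per1, Per2, Cry1, Nr1d1, Rora, Dbp, Tef and Bhlhe40. They were listed by name and matched on the annotated gene symbol, and the probe set of a symbol was selected on its mean log2 value over the 12 arrays, the highest being kept, a choice that arose for Rora only. The metastases had grown in mice injected through the tail vein with NMuMG-ErbB2 cells, a mouse mammary gland epithelial line that carries the oncogene ErbB2. One line overexpressed PGC-1alpha, a transcriptional coactivator known for driving mitochondrial biogenesis, and the other was the control line labelled VC. Phenformin (100 uM), a biguanide and inhibitor of respiratory complex I, or water was given to the explants over 4 days of culture. This gave 4 groups of 3 arrays: PGC-1alpha explants in phenformin, PGC-1alpha explants in water, control-line explants in phenformin and control-line explants in water. All groups carried ErbB2, and the labels used here do not say whether a line was 1 clone, how PGC-1alpha was driven, how many animals were used, or at what time of day RNA was taken. They do not say either whether replicates were separate cultures or animals, so the spread that the p-values rest on may be technical. Because the genes were listed with earlier results of these data known, the counts over them below are descriptions.

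The clock is a feedback loop of transcription. Arntl (also called Bmal1) and Clock encode the partners that bind E-box sequences and activate Per, Cry, Nr1d1 and Dbp genes, and PER and CRY proteins then repress ARNTL and CLOCK. In a second loop REV-ERB alpha, the product of Nr1d1, represses Arntl through ROR elements that ROR alpha, the product of Rora, uses to activate it. Dbp and Tef encode PAR bZIP factors that carry the rhythm to output genes through D-boxes, and Bhlhe40 (Dec1) encodes a repressor that binds E-boxes. Cells in culture hold this loop too, and each sample here was collected once, so a shift in the phase of a rhythm and a change in its mean level cannot be told apart.

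To show the elements that this loop uses, RefSeq promoter windows of GRCm38.p6 were searched on both strands in the 250 bases before and 50 bases after annotated starts. A window was given for 8 of the 10 genes, 13 windows in all. The letters searched were CACGTG (E-box), CACGTT (a noncanonical E-box), TTATGTAA and TTACGTAA (D-box), ANTAGGTCA and ANTGGGTCA (ROR element) and TGACGTCA (cAMP response element), and no matched stretches overlapped. Capitals below mark a match, and the Dbp stretch holds none. The stretches printed are those of Arntl, Dbp, Cry1 and Nr1d1, which each pass a test below. Rora and Tef also have windows and pass a test below, but their stretches are not printed. The Arntl site lies at chr7:113207529-113207557 on the + strand, just after a start, Dbp at chr7:45704997-45705246 on the + strand, Cry1 at chr10:85185055-85185304 on the - strand and Nr1d1 at chr11:98775378-98775627 on the - strand, and the last 3 run 5′ to 3′ up to the base before the start.
Arntl: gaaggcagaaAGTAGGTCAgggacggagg
Dbp: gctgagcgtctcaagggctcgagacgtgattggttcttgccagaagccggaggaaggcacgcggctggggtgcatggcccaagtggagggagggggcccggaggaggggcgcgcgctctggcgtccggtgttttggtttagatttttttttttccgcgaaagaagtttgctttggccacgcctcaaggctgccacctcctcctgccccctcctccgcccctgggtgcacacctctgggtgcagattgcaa
Cry1: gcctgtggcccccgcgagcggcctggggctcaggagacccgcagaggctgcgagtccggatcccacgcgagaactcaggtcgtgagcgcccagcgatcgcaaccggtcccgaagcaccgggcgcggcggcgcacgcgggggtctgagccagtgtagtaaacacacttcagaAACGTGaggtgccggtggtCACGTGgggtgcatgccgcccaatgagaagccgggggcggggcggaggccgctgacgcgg
Nr1d1: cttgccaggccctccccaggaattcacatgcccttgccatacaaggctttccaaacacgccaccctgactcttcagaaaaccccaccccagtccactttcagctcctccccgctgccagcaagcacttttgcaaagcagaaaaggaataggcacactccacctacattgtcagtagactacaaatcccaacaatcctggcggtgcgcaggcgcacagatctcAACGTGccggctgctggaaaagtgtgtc
The Arntl site holds a ROR element, from base 29 to base 37 counted from the start. Cry1 holds an E-box and a noncanonical E-box, and Nr1d1 a noncanonical E-box. CACGTG was also found before a start of Per1 and in both windows of Tef, in 4 of the 13 windows in all (3 genes), against 7.15% of all 32851 windows. Windows of 1 gene can overlap, as those of Arntl do, so the 13 are not separate units. The ROR element was found in 1 of 13 windows against 1.45% of all, the noncanonical E-box in 2 against 4.68%, and the D-box and the cAMP response element in none against 1.06% and 1.79%. A match is a stretch of letters and no measured site.

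Values are log2 expression values of the arrays, and differences are given with standard errors from limma over 3 arrays per group. The limit of background on an array was the 95th percentile of its negative controls, between 7.72 and 7.99. Clock, Nr1d1, Dbp and Bhlhe40 exceeded it on all 12 arrays, Per1 on 11 and Arntl on 8. Per2, Cry1, Rora and Tef exceeded it on none, so no fold change is given for those 4. Ppargc1a, which encodes PGC-1alpha, followed the labels, since its lowest value in PGC-1alpha explants was 8.06 and its highest in control-line explants 7.29. Of 8 mammary epithelial markers, 5 exceeded the limit on every array, while Epcam, Cldn3 and Cldn4 did so on none. Of the 8, Krt19, a keratin gene, passed in some comparisons and is given with the phenformin values, and the other 7 passed in none. Markers of leukocytes (6 measured), endothelium (5) and lung epithelium (5) exceeded it on no array, and of 6 fibroblast genes only Col1a1 did, on 1 control-line water array. Their mean log2 level lay between 4.73 and 5.90 in every group. In such bulk samples, fewer cells expressing a gene and less RNA per cell cannot be told apart.

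**Figure D1:**
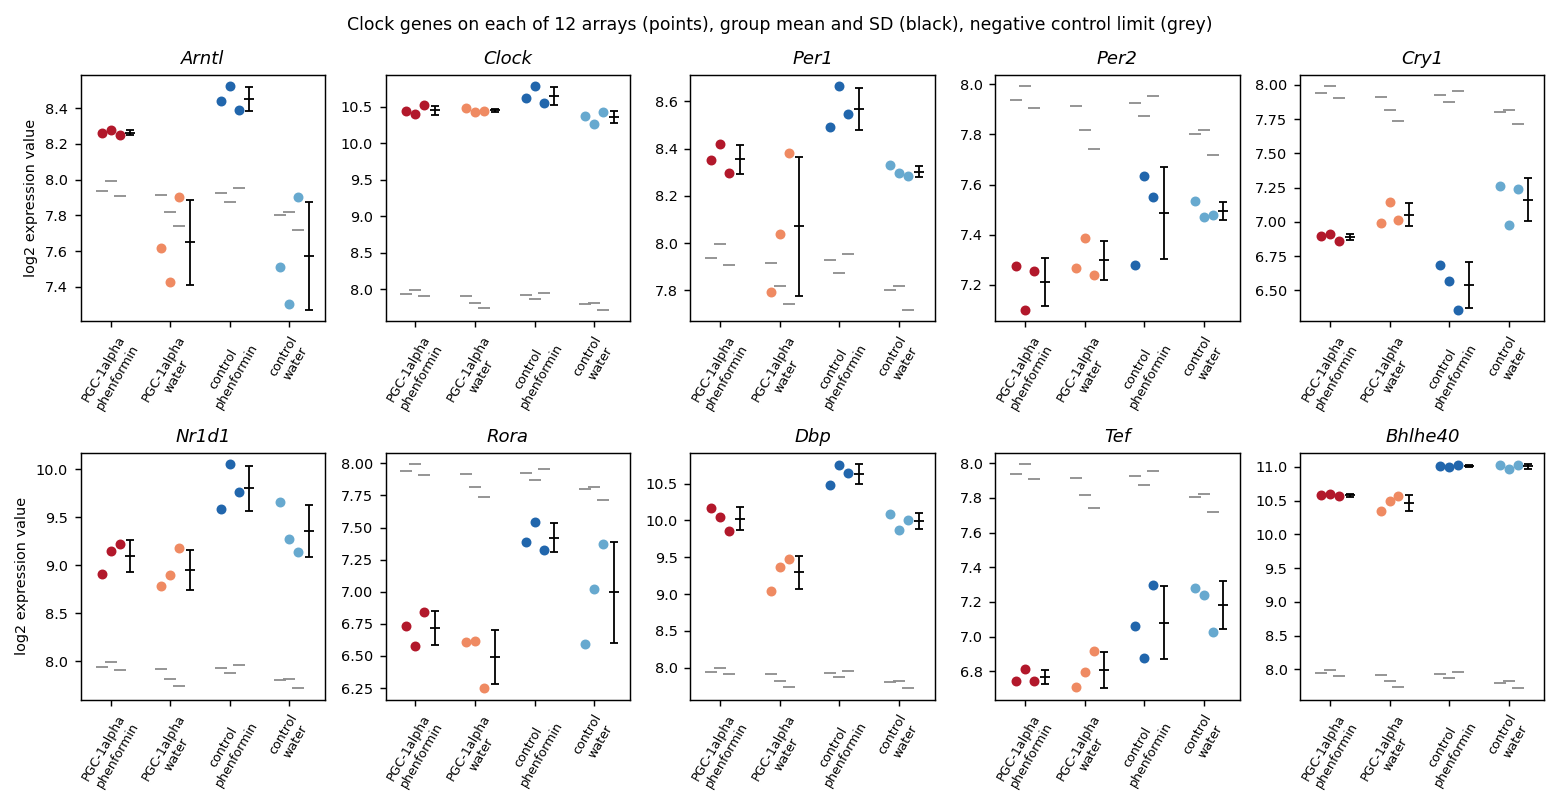
Log2 expression values of the 10 clock genes (vertical axes, each with its own range) in PGC-1alpha and control-line explants in phenformin and in water. Points are single arrays, black bars the mean and SD of 3 arrays, and grey dashes the background limit of each array; Dbp and Bhlhe40 stand far above it, and Per2, Cry1, Rora and Tef below it.

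The first question was what phenformin changed. As the mean of both lines, Arntl and Dbp rose in phenformin and Cry1 fell, while Bhlhe40, Per2 and Tef had differences near 0. In control-line explants Arntl and Dbp rose and Cry1 fell, and in PGC-1alpha explants Dbp rose. Arntl also passed in PGC-1alpha explants among genes above the median level (adjusted p = 0.0416), among genes above the background limit in 3 or more arrays (0.0312) and with trend and robust variance estimates (0.0355). Of the 10 genes, limma called 3 in control-line explants at an adjusted p under 0.05, where 1.20% of all genes were called, and 1 in PGC-1alpha explants, where 0.195% were called. The phenformin and water arrays did not overlap for 5 of the 10 in control-line explants, where 19.4% of all genes did not overlap, and for 3 in PGC-1alpha explants, where 19.6% did not.

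Arntl, the activator of the loop, stood at 8.26, 8.28 and 8.25 in PGC-1alpha explants in phenformin, against 7.62, 7.43 and 7.90 in PGC-1alpha explants in water. In control-line explants it was 8.44, 8.52 and 8.39 in phenformin, against 7.51, 7.31 and 7.90 in water. Every phenformin array lay above every water array of either line. The rise was 0.88 ± 0.15 in control-line explants (1.84-fold, adjusted p = 0.0152), with 1 of the 3 water arrays above the background limit. The difference of 0.61 ± 0.15 in PGC-1alpha explants did not pass (adjusted p = 0.125), and there too 1 of the 3 water arrays exceeded the limit. As the mean of both lines, Arntl rose by 0.75 ± 0.11 (1.68-fold, adjusted p = 0.00205), with 2 of the 6 water arrays above the limit. Its partner Clock was 10.61, 10.78 and 10.54 in control-line explants in phenformin, against 10.37, 10.26 and 10.42 in water. Those groups do not overlap, yet the difference of 0.29 ± 0.10 did not pass (adjusted p = 0.163). In PGC-1alpha explants the difference of Clock was 0.00 ± 0.10, with a 95% interval of -0.22 to 0.22.

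Dbp, the PAR bZIP output gene, was 10.17, 10.05 and 9.86 in PGC-1alpha explants in phenformin, against 9.04, 9.36 and 9.47 in PGC-1alpha explants in water. Control-line explants had 10.48, 10.76 and 10.65 in phenformin, against 10.09, 9.87 and 10.01 in water. The groups of a line do not overlap, and the PGC-1alpha arrays in phenformin cover the range of the control-line arrays in water. The rise was 0.73 ± 0.13 in PGC-1alpha explants (1.66-fold, adjusted p = 0.0456) and 0.64 ± 0.13 in control-line explants (1.56-fold, adjusted p = 0.0389). Over both lines it was 0.69 ± 0.09 (1.61-fold, adjusted p = 0.00168). Tef, the other PAR bZIP gene of the set, did not pass, with differences of -0.04 ± 0.12 in PGC-1alpha and -0.10 ± 0.12 in control-line explants.

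Of the repressor genes, only Cry1 passed in these comparisons. It was 6.69, 6.57 and 6.36 in control-line explants in phenformin, against 7.26, 6.98 and 7.24 in water, and fell by 0.62 ± 0.12 (adjusted p = 0.0214) within the range of the negative controls. In PGC-1alpha explants it was 6.90, 6.91 and 6.86 in phenformin, against 6.99, 7.15 and 7.02 in water, a difference of -0.16 ± 0.12 that did not pass (adjusted p = 0.656). No phenformin array of a line reached its water arrays. Over both lines Cry1 fell by 0.39 ± 0.08 (adjusted p = 0.0185). Per1, which is also induced by cAMP and glucocorticoid signals, had differences of 0.28 ± 0.13 in PGC-1alpha and 0.26 ± 0.13 in control-line explants, and 0.27 ± 0.09 over both lines (adjusted p = 0.111). Its PGC-1alpha arrays in water were spread widely, at 7.79, 8.04 and 8.38, and without the third of them the difference over both lines was 0.35 and passed (adjusted p = 0.0231). Per2 differed by -0.09 ± 0.11 in PGC-1alpha and -0.01 ± 0.11 in control-line explants. For the repressor Bhlhe40 the values were 0.11 ± 0.10 and 0.01 ± 0.10, with 95% intervals of -0.10 to 0.32 in PGC-1alpha and -0.20 to 0.21 in control-line explants.

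The nuclear receptor genes Nr1d1 and Rora had positive differences that did not pass. Nr1d1 differed by 0.14 ± 0.16 in PGC-1alpha and 0.44 ± 0.16 in control-line explants (adjusted p = 0.812 and 0.189), and Rora by 0.23 ± 0.17 and 0.42 ± 0.17 (adjusted p = 0.676 and 0.232). The difference over both lines was 0.29 ± 0.12 for Nr1d1 and 0.33 ± 0.12 for Rora. Without control-line water replicate 3, that of Rora was 0.42 and passed (adjusted p = 0.0395).

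All 10 genes had the same sign of difference in the 2 lines, which share no arrays, 7 of them positive, where 63.1% of all genes had the same sign. Clock in PGC-1alpha explants (0.002), and Bhlhe40 (0.005) and Per2 (-0.008) in control-line explants, lay so near 0 that their signs say little. The median difference of the 10 was 0.13 in PGC-1alpha and 0.28 in control-line explants, beside -0.02 and -0.01 over all genes. Over both lines 3 of the 10 passed, where 4.58% of all genes did, and all 6 phenformin arrays lay apart from all 6 water arrays for Arntl and Cry1, where 2.39% of all genes were so separated. The median signal of the negative controls lay between 5.09 and 5.20 on the 6 phenformin arrays and between 4.69 and 5.02 on the 6 water arrays, a difference of means in the same direction as Arntl and Dbp and the opposite of Cry1. The mammary epithelial marker Krt19 moved as Arntl and Dbp did. It rose by 0.63 ± 0.10 over both lines (adjusted p = 0.00493), with all 6 phenformin arrays above all 6 water arrays. In control-line explants it rose by 0.70 ± 0.15 (adjusted p = 0.0405). Its difference in PGC-1alpha explants was 0.56 ± 0.15 (adjusted p = 0.158), and that of PGC-1alpha minus control line over both treatments was -0.36 ± 0.10 (adjusted p = 0.0516). Krt19 was not typical of its list: of the 8 epithelial markers, 5 had positive and 3 negative differences over both lines, with a median of 0.03. The 3 were Krt8, Krt18 and Erbb2, whose means were lower in phenformin than in water in both lines. The part of epithelial content in the values of the clock genes was not tested. With a covariate for how far positive controls stood above negative ones, which also separates phenformin from water arrays, none of the 10 passed, although Arntl and Dbp still differed by 0.74 and 0.75 over both lines (adjusted p = 0.485 and 0.398). The part of array signal in these differences cannot be told apart from that of phenformin.

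The calls within a line rest on few arrays, and each was lost in some fits without 1 array. Without any 1 of control-line water replicate 2 and phenformin replicates 2 and 3, Arntl no longer passed in control-line explants (adjusted p of up to 0.0938). Cry1 was lost without water replicate 1 or phenformin replicate 2 or 3 (adjusted p of up to 0.101). Dbp was lost in control-line explants in 8 of 12 such fits (adjusted p of up to 0.186) and in PGC-1alpha explants in 10 of 12 (up to 0.298), with differences of 0.58 to 0.71 and 0.61 to 0.82. Some of these Dbp fits left out an array of the other line. Such an array enters the call only through the shared spread and the adjustment over all genes. Over both lines, Arntl and Dbp passed in each of the 12 fits, and Cry1 was lost without PGC-1alpha water replicate 2 or PGC-1alpha phenformin replicate 1 or 3 (adjusted p of up to 0.0536).

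**Figure D2:**
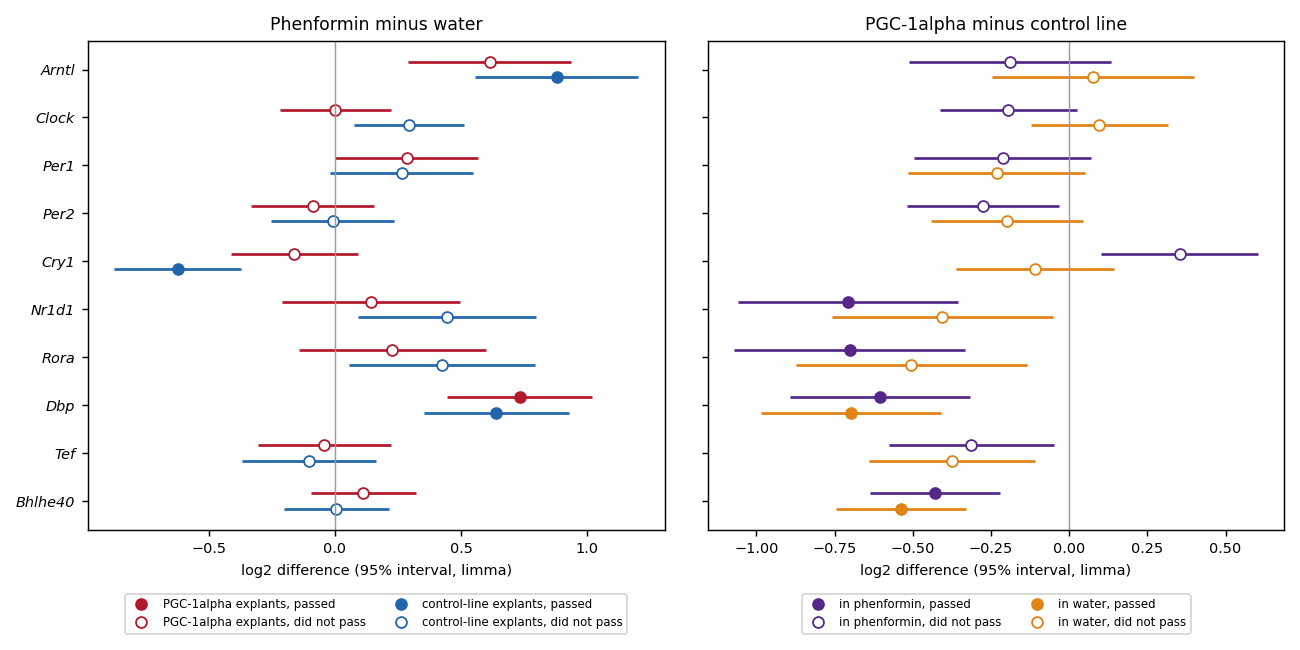
Log2 differences with 95% intervals (horizontal axes) for the 10 clock genes, phenformin minus water by line on the left and PGC-1alpha minus control line by treatment on the right. Filled points passed an adjusted p of 0.05 over all genes; Arntl and Dbp lie to the right of 0 under phenformin, and Dbp and Bhlhe40 lie to the left of 0 between the lines in both treatments.

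The second question was how the 2 lines differed. Several clock genes were lower in PGC-1alpha explants: Dbp and Bhlhe40 in both treatments, and Nr1d1 and Rora in phenformin. None of the 10 was higher past the threshold over all genes, though Cry1 was higher in phenformin (0.35, adjusted p = 0.0457) where only genes above the median level were tested. Of the 10, limma called 4 in phenformin, all lower, where 4.01% of all genes were called (3.16% lower), and 2 in water, both lower, where 1.37% of all genes were called lower. In phenformin the 3 PGC-1alpha arrays lay below the 3 control-line arrays for 9 of the 10 genes and above them for Cry1, where 27.5% of all genes did not overlap and 16.4% lay below. In water they lay below for 4 and above for 1, where 14.1% of all genes did not overlap and 7.61% lay below. After quantile normalization each of the 10 line differences in phenformin was smaller in size. That of Bhlhe40 moved from -0.43 to -0.33 and that of Dbp from -0.60 to -0.50. Over all genes, 184 were then called higher and 463 lower in phenformin, against 167 and 616.

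Bhlhe40, the repressor, was 10.58, 10.60 and 10.56 in PGC-1alpha explants in phenformin, against 11.01, 10.99 and 11.03 in control-line explants in phenformin. In water it was 10.34, 10.49 and 10.58 in PGC-1alpha explants, against 11.03, 10.96 and 11.02 in control-line explants. All 6 PGC-1alpha arrays lay below all 6 control-line arrays. The fall was 0.43 ± 0.10 in phenformin (1.35-fold, adjusted p = 0.0226) and 0.54 ± 0.10 in water (1.45-fold, adjusted p = 0.0087). Dbp, with the values above, was lower by a difference of -0.60 ± 0.13 in phenformin (1.52-fold, adjusted p = 0.0204) and -0.70 ± 0.13 in water (1.62-fold, adjusted p = 0.0134). Over both treatments Bhlhe40 was 1.40-fold lower (-0.48 ± 0.07, adjusted p = 0.00048) and Dbp 1.57-fold lower (-0.65 ± 0.09, adjusted p = 0.000602).

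Nr1d1 was 8.91, 9.14 and 9.23 in PGC-1alpha explants in phenformin, against 9.58, 10.05 and 9.76 in control-line explants in phenformin. It was 8.78, 8.89 and 9.18 in PGC-1alpha explants in water, against 9.65, 9.28 and 9.14 in control-line explants in water, where the groups overlap. The difference was -0.71 ± 0.16 in phenformin (1.63-fold lower, adjusted p = 0.0264) and -0.41 ± 0.16 in water (adjusted p = 0.333). Rora was 6.73, 6.58 and 6.84 in PGC-1alpha explants in phenformin, against 7.39, 7.55 and 7.33 in control-line explants in phenformin, a difference of -0.70 ± 0.17 (adjusted p = 0.0362) within the range of the negative controls. In water it was 6.61, 6.62 and 6.25 in PGC-1alpha explants, against 6.59, 7.02 and 7.37 in control-line explants, whose replicates spread more than any other group of this gene (-0.50 ± 0.17, adjusted p = 0.213). Over both treatments Nr1d1 (-0.56 ± 0.12, adjusted p = 0.00828) and Rora (-0.60 ± 0.12, adjusted p = 0.00672) passed.

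Tef was lower over both treatments by a difference of -0.34 ± 0.09 (adjusted p = 0.0278), at 6.75, 6.81 and 6.74 in PGC-1alpha explants in phenformin, against 7.06, 6.88 and 7.30 in control-line explants in phenformin. In water it was 6.71, 6.80 and 6.92 in PGC-1alpha explants, against 7.28, 7.24 and 7.03 in control-line explants. The groups do not overlap within a treatment, but neither difference passed alone (adjusted p = 0.215 in phenformin and 0.189 in water). The period genes had negative differences over both treatments that did not pass, -0.22 ± 0.09 for Per1 (adjusted p = 0.213) and -0.24 ± 0.08 for Per2 (adjusted p = 0.104). Arntl (-0.06 ± 0.11) and Clock (-0.05 ± 0.07) did not pass either, and their 95% intervals ran from -0.29 to 0.17 and from -0.20 to 0.11. Cry1 differed by 0.35 ± 0.12 in phenformin (adjusted p = 0.127) and -0.11 ± 0.12 in water.

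The line differences in phenformin and in water share no arrays, and 7 of the 10 genes had the same sign in both, all 7 negative, where 60.1% of all genes had the same sign. The median of the 10 was -0.29 in phenformin and -0.30 in water, beside -0.01 and 0.00 over all genes. Over both treatments 5 of the 10 passed, all lower, where 6.97% of all genes passed (5.12% lower), and Bhlhe40 alone had all 6 arrays of one line apart from all 6 of the other, where 4.19% of all genes did. Negative control medians of the lines overlapped, from 4.88 to 5.15 on PGC-1alpha arrays and from 4.69 to 5.20 on control-line arrays. With the control gap as a covariate, Bhlhe40, Dbp and Rora passed over both treatments, and Nr1d1 (adjusted p = 0.0744) and Tef (adjusted p = 0.127) did not. In phenformin that covariate ended the calls of Nr1d1 (adjusted p = 0.0523) and Rora (0.0652), and in water those of Bhlhe40 (0.0651) and Dbp (0.0866).

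Leaving out any 1 of the 6 phenformin arrays ended the calls of Bhlhe40 (adjusted p of up to 0.0869) and Rora (up to 0.161) in phenformin, with differences of -0.44 to -0.42 and -0.76 to -0.63. Nr1d1 was lost there without any of these but control-line replicate 1 (up to 0.148), and Dbp without replicate 2 or 3 of either line (up to 0.116). In water, Bhlhe40 passed in each of 12 such fits, and Dbp was lost without replicate 1 of PGC-1alpha water (adjusted p = 0.064) or of control-line water (0.0563). Without that control-line array, Rora passed in water (-0.71, adjusted p = 0.0417). Over both treatments Bhlhe40, Dbp, Nr1d1 and Rora passed in each of the 12 fits and Tef was lost in 9 (up to 0.0747). Per1 gained a call without PGC-1alpha water replicate 3 (adjusted p = 0.0418) and Per2 without control-line phenformin replicate 1 (0.0467).

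The phenformin responses of the lines were then compared. For no clock gene did the difference between responses pass, and limma called 0% of all 19505 genes, with 1018 at an unadjusted p under 0.05. The widest gap was that of Cry1, whose response was -0.16 in PGC-1alpha and -0.62 in control-line explants (difference 0.46 ± 0.17, 95% interval 0.11 to 0.82, adjusted p = 0.928). For Dbp the difference was 0.09 ± 0.19 (95% interval -0.31 to 0.50) and for Arntl -0.27 ± 0.21 (-0.72 to 0.19), and 3 arrays per group leave intervals of this width. The phenformin comparison of a line and the line comparison of a treatment share a group of 3 arrays, so their values are not independent.

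Genes around the loop were taken from 5 lists. Of 11 other loop genes, 10 were measured and none passed in any comparison. Only Cry2, Nr1d2 and Bhlhe41 exceeded the background limit on all 12 arrays, Per3 did so on 1, and the other 6 (Arntl2, Ciart, Hlf, Nfil3, Npas2 and Rorb) on none, so for those 7 the lack of a call says little. Per3 differed between the lines by -0.35 ± 0.11 (adjusted p = 0.0707). Nr1d2, which encodes REV-ERB beta, and Cry2 did not pass, with line differences over both treatments of -0.01 ± 0.08 and -0.09 ± 0.08.

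Of 14 measured regulators of clock proteins, 1 rose with phenformin over both lines and 1 was higher and 2 were lower in PGC-1alpha explants over both treatments, where 4.58% and 6.97% of all genes passed. Prkaa2, a catalytic subunit of AMPK, which can mark CRY1 for degradation, rose with phenformin (0.52 ± 0.09, adjusted p = 0.0049) and was higher in PGC-1alpha explants (0.42 ± 0.09, adjusted p = 0.00718). It exceeded the background limit on 3 PGC-1alpha arrays in phenformin, 2 PGC-1alpha arrays in water, 2 control-line arrays in phenformin and 0 control-line arrays in water, so no fold is given. The other catalytic subunit gene, Prkaa1, was 1.27-fold lower in PGC-1alpha explants (-0.35 ± 0.07, adjusted p = 0.00857). Gsk3b, a kinase of several clock proteins, was 1.46-fold lower (-0.55 ± 0.07, adjusted p = 0.000318), with all 6 PGC-1alpha arrays below the control-line arrays. The casein kinase genes Csnk1d, Csnk1e and Csnk1a1 did not pass in any comparison. Of 8 measured clock outputs, Klf10 was 1.29-fold lower in PGC-1alpha explants (-0.37 ± 0.09, adjusted p = 0.018), and none passed under phenformin, where Alas1, the first enzyme of haem synthesis, had the smallest adjusted p (0.44 ± 0.13, adjusted p = 0.0598).

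Per1 is one of several clock genes that extracellular signals induce directly, so immediate early and glucocorticoid target genes were set beside the clock. Of 9 measured immediate early genes, Dusp1, a MAP kinase phosphatase, rose 1.65-fold with phenformin over both lines (0.72 ± 0.12, adjusted p = 0.00537) and was 1.37-fold lower in PGC-1alpha explants (-0.45 ± 0.12, adjusted p = 0.0364). The transcription factor gene Egr1 was 1.49-fold lower in PGC-1alpha explants (-0.57 ± 0.11, adjusted p = 0.00334), and the other 7 did not pass in either of these comparisons. Of 6 glucocorticoid targets, 3 were lower in PGC-1alpha explants over both treatments, where 5.12% of all genes were: Fkbp5, a chaperone of the glucocorticoid receptor (1.67-fold, -0.74 ± 0.12, adjusted p = 0.00155), Sgk1, a serum and glucocorticoid regulated kinase (1.55-fold, -0.63 ± 0.13, adjusted p = 0.00665), and Tsc22d3 (-0.76 ± 0.13, adjusted p = 0.0021), which exceeded the background limit on 1 of 12 arrays. Sgk1 also rose 1.86-fold with phenformin (0.89 ± 0.13, adjusted p = 0.00204). The lists' medians between the lines were -0.01 for immediate early genes and -0.32 for glucocorticoid targets, beside 0.00 over all genes. The part of such signals in the values of the clock genes was not tested.

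**Figure D3:**
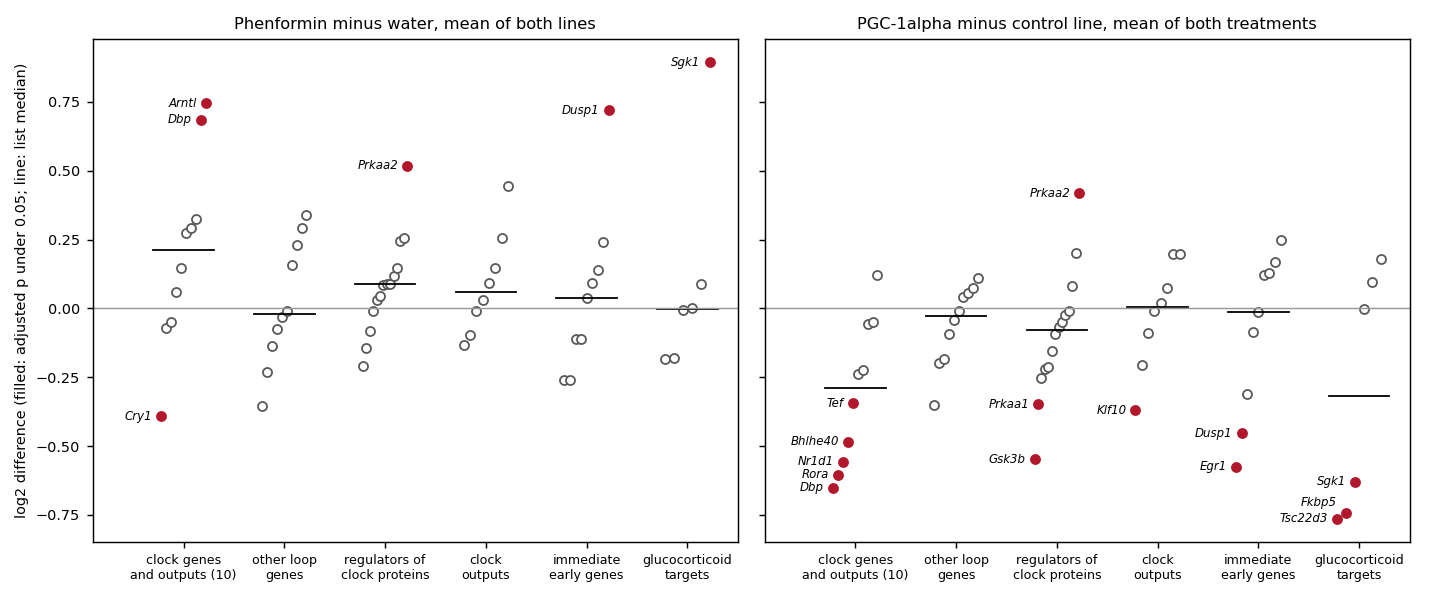
Log2 differences (vertical axis) of the 10 clock genes and of the measured genes of 5 further lists, for phenformin minus water over both lines on the left and PGC-1alpha minus control line over both treatments on the right. Points are genes, filled and named where the adjusted p was under 0.05, and lines are list medians; filled clock genes lie below 0 between the lines, while Arntl and Dbp lie above 0 and Cry1 below it for phenformin.

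Finally, genes with profiles like those of Bhlhe40, Dbp and Arntl, the 3 clock genes with the smallest adjusted p, were sought among the other 19504 genes. Likeness was the root mean square difference between log2 profiles centred on their own means over the 12 arrays, and it is a description. Nearest to Bhlhe40 were Nde1, a dynein regulator (0.0715), Tnnt2, cardiac troponin T (0.0784), and Mfn2, a GTPase of mitochondrial fusion (0.085), beside a root mean square of 0.251 for Bhlhe40 about its own mean. Nearest to Dbp were Pfkp, a phosphofructokinase (0.0915), Mapre3, which binds microtubule ends (0.116), and Neurl1a, a ubiquitin ligase (0.126), beside 0.491 for Dbp itself. Nearest to Arntl were Stradb, a pseudokinase that binds LKB1 (0.111), Castor1, an arginine sensor of the mTORC1 pathway (0.141), and Plekhn1 (0.142), beside 0.412 for Arntl itself. No other clock gene was among the 3 nearest of any of them. Castor1 exceeded the background limit on 1 control-line array in phenformin and on no other array. Mapre3 exceeded it on no PGC-1alpha array in water, and Neurl1a, Stradb and Plekhn1 fell short of it on some water arrays. Pfkp stood at 10.31 ± 0.09 in PGC-1alpha explants in phenformin, 9.51 ± 0.16 in PGC-1alpha explants in water, 10.76 ± 0.06 in control-line explants in phenformin and 10.13 ± 0.14 in control-line explants in water (SD, n = 3 each), values that follow Dbp because it was picked for likeness over these arrays.

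**Figure D4:**
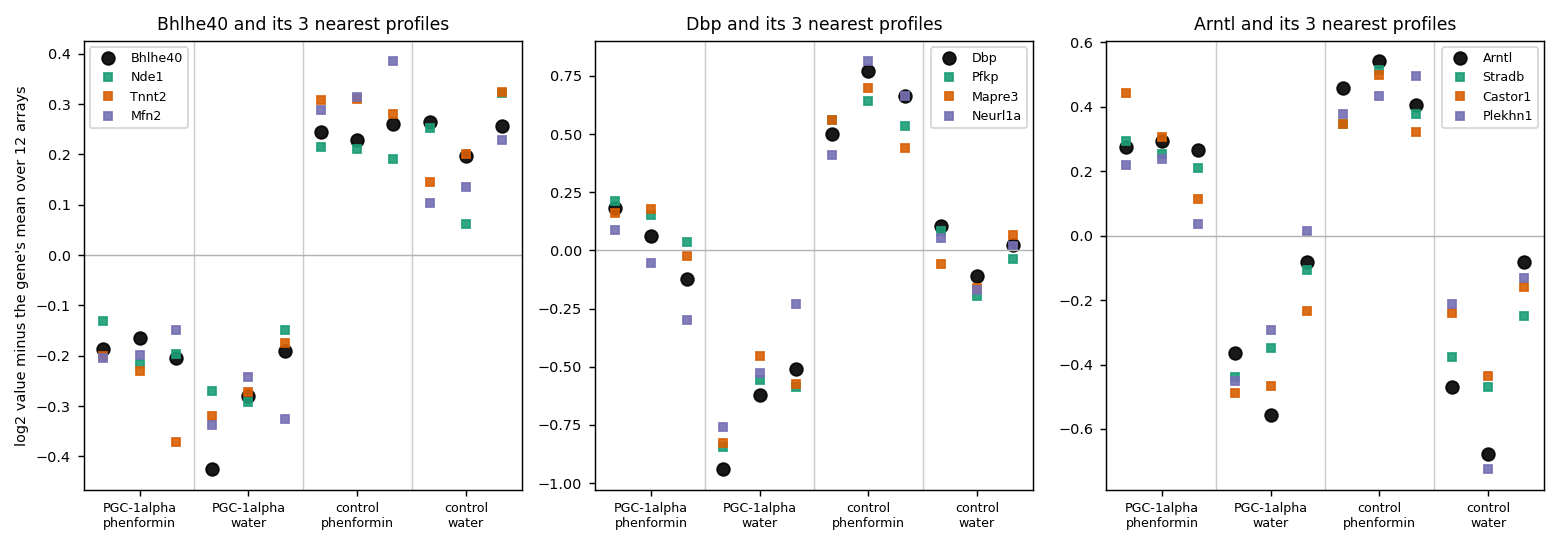
Log2 values minus each gene's mean over the 12 arrays (vertical axes) for Bhlhe40, Dbp and Arntl (black circles) and the 3 genes nearest to each (coloured squares), array by array in the 4 groups. Bhlhe40 separates the lines, Arntl separates phenformin from water, and Dbp is lower in PGC-1alpha explants within a treatment and higher in phenformin within a line.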

How the data were processed

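Total RNA of 12 explant samples was measured on expression arrays, with cDNA made and labelled by a kit for small inputs per the labels' protocols. The deposited value table has 28815 probe sets, from 1.50 to 13.65, read as log2 expression values from their range. The sources used here do not give the log base or the authors' normalization and summarisation, and with another base each difference would scale. The other deposited table has 12 value columns that match no sample label, and was left out. Array medians over all probe sets lay between 6.32 and 6.43.

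Groups came from the sample titles. Symbols came from the platform annotation through Entrez identifiers against RefSeq of GRCm38.p6. Only probe sets annotated with exactly 1 symbol were kept, 19572 in all. The probe set with the highest mean was kept for 55 genes with several, leaving 19505. limma 3.58.1 in R 4.3.3 (lmFit, eBayes) fitted 4 group means, with 8 residual degrees of freedom. The 7 contrasts had two-sided tests, adjusted by Benjamini and Hochberg's method over all genes, with a threshold of 0.05. The fit was tested on simulated data.

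A fold is given as measured where an array of each group exceeded the background limit, the 95th percentile of 5222 negative controls, a strict limit. The number of arrays limits the precision. The members, gene lists and tests were chosen with earlier results of these data known. The rule for names took all members, Ppargc1a, clock list genes past the threshold or among the 3 with the smallest adjusted p of a list, and the 3 nearest profiles. Marker genes, the casein kinases and the other loop genes named for their detection fall outside it and were chosen after their values were seen. Alternatives were the replicate block, quantile normalization, 2 filters (genes above the median level, or above the background limit in 3 or more arrays), another variance model, a covariate and leaving out each array. Some list genes were not analysed here.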

Additional observations from a re-analysis of the deposited data

How the results depend on the processing

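Of 1232 values of the 10 genes under the other settings, 1138 kept their side of the threshold, 82 lost a call, 12 gained one and none reversed a called direction; values that passed in neither fit were counted as kept. The labels do not say whether replicate numbers pair the arrays. Same-numbered arrays of different groups had correlated deviations above 0.1 in 1 of 18 pairs (r from -0.37 to 0.13). With 3 arrays per group, these correlations cannot decide whether the arrays were paired. With the replicate block, limma called 1 clock gene between the lines in phenformin (against 4), 1 in control-line explants under phenformin (against 3) and 0 in PGC-1alpha explants (against 1, Dbp, now at an adjusted p of 0.123), and over all genes 100 in control-line explants (against 234), 10 in PGC-1alpha explants (against 38) and 490 over both lines (against 894). That block ended the line calls in phenformin of Bhlhe40 (adjusted p = 0.0522), Nr1d1 (0.0558) and Rora (0.0679). After quantile normalization limma called 2 clock genes between the lines in phenformin and 62 of all genes in PGC-1alpha explants under phenformin. The line calls in phenformin lost under quantile normalization were those of Bhlhe40 (adjusted p = 0.0735) and Nr1d1 (0.0598). That setting also moved the split of calls for phenformin, to 115 higher and 59 lower in control-line explants (against 179 and 55) and 529 and 315 over both lines (against 653 and 241). Above the median level, 637 genes were called in control-line explants, 187 in PGC-1alpha explants and 1545 over both lines, with 2 clock genes, Arntl and Dbp, in PGC-1alpha explants. Among genes above the negative control limit in 3 or more arrays, which leaves out Per2, Cry1, Rora and Tef, the counts were 617, 250 and 1590, with 2 clock genes called in PGC-1alpha explants under phenformin and 3 between the lines over both treatments (against 5), and 1 gene passed for the difference of responses. With trend and robust estimates they were 666, 250 and 1595, with 626 between the lines in water (against 391), 3 for the difference of responses and 2 clock genes in PGC-1alpha explants. With the control gap as a covariate, 0 genes were called in control-line explants, 1 in PGC-1alpha explants and 0 over both lines under phenformin, with 0 clock genes in each. Between the lines that fit called 193 genes in water and 798 over both treatments (against 1359), with 0 clock genes in water, 2 in phenformin and 3 over both treatments. The cause of these changes was not tested, beyond fewer genes tested under the filters. Leaving out 1 array gave 1 to 2 clock genes between the lines in water (247 to 349 of all genes), 0 to 4 in phenformin (346 to 995) and 4 to 6 over both treatments (974 to 1365). For phenformin it gave 0 to 3 in control-line explants (21 to 601), 0 to 1 in PGC-1alpha explants (3 to 77) and 2 to 4 over both lines (333 to 1191), and for the difference of responses 0 clock genes (0 to 1 of all genes).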

Other observations

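Rora has 3 probe sets. For PGC-1alpha minus control line over both treatments, the 1 reported (mean level 6.91) gave -0.60 ± 0.12, a dimmer 1 (5.90) gave -0.41 ± 0.10 and the dimmest (5.37) gave 0.08 ± 0.12. The dimmest goes against the other 2 in sign.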
